A study of Rattus norvegicus with 4 samples.

Results

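The genes described are those of vascular growth and oxygen sensing in the rat hippocampus: the growth factors Vegfa and Vegfb and their receptors Kdr, Flt1 and Flt4, the angiopoietins Angpt1 and Angpt2, the endothelial adhesion molecule Pecam1, and the hypoxia-inducible factors Hif1a and Epas1. A probe belonged to a gene when the accession printed for it on the array resolved to that symbol in the RefSeq gene table of the GRCr8 assembly. Of the 10 genes, 9 had at least 1 probe, with 13 probes on 31 spots per chip, among 10768 named probes of 8899 genes and 41012 probes in all. No probe resolved to Angpt2, which was not analysed here. None of the 9 genes passed the criteria for a change in either running group.

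VEGF ligands bind receptor tyrosine kinases on endothelial cells and drive the growth and permeability of capillaries, with Kdr as the main signalling receptor and Flt1 as a high-affinity receptor that also traps ligand. Angpt1 acts on the Tie2 receptor and stabilises vessels, and Angpt2 is its context-dependent antagonist. When oxygen falls, prolyl hydroxylases stop marking the HIF alpha subunits for destruction. The stabilised protein then switches on genes such as Vegfa through short motifs, among them those with the core letters ACGTG. This control acts largely on the HIF proteins, which an RNA array does not measure.

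Hippocampal RNA came from male Wistar rats that were 10 weeks old at the start and were studied after 4 weeks. Sedentary rats (10) lived in standard cages, WR rats (8) ran voluntarily without resistance, and RWR rats (8) ran against a resistance that began at 4.5 g in the first week and reached 30% of body weight. RNA of each group was pooled to 900 ng, made of 300 ng from each replicate, and the number of rats behind a pool is not stated in the sources used here. On a 2-colour rat oligonucleotide array chips 1 and 2 carried WR against sedentary, and chips 3 and 4 carried RWR against sedentary. The running pool carried Cy5 on chips 1 and 3 and Cy3 on chips 2 and 4. All 4 chips lay on a single slide. Each comparison therefore has 1 biological replicate measured on 2 chips: no test between conditions was possible, and every error given below is that of the measurement and not of the rats.

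The median signal per dye lay between 62.2 and 78.3 intensity units, no spot was saturated, and 24953 probes exceeded the software's well-above-background limit in each dye of every chip, which is called detected here. The number of chips limits the precision. Once the ratios were turned to running over sedentary, chips of a pair were negatively correlated across probes (Pearson r of -0.761 for WR and -0.686 for RWR), whereas chips with the same dye on the running pool correlated at 0.712 and 0.700. The values thus followed the dye more closely than the pool. A constant dye effect cancels in the mean of a pair, so means are given beside the values of each chip.

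The promoter windows below show where these letters stand. ACGTG and its reverse complement CACGT were searched on both strands in the 250 bases before the RefSeq gene start. A window with a match was found for 1 of the 7 member genes with an entry (14.3%), for 6 of 11 HIF target genes with an entry (54.5%) and for 16.6% of 33469 genes in the table. Hif1a was the only member with a match. Its window is printed because of that, and those of Slc2a1, the glucose transporter of the blood-brain barrier, and Ldha, which makes lactate from pyruvate, stand beside it as textbook HIF targets picked after their values were seen. All read 5′ to 3′ on the plus strand of GRCr8, at chr6:98359648-98359897, chr5:138002272-138002521 and chr1:106507842-106508091. Capitals mark the matches, and CACGTG counts on each strand.
Hif1a: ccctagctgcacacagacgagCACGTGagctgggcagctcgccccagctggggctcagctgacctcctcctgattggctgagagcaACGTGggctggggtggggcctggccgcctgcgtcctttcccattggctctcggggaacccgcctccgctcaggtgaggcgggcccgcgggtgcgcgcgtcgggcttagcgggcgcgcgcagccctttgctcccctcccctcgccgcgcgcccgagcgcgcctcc
Slc2a1: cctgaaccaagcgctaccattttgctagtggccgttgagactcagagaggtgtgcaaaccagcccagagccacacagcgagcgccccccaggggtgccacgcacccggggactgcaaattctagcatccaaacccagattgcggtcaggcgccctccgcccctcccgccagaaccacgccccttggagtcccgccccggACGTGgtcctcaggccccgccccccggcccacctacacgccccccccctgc
Ldha: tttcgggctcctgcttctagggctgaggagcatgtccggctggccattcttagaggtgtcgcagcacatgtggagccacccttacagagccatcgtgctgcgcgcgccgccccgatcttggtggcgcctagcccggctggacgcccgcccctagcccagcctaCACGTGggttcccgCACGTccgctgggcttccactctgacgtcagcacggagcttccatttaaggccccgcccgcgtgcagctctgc

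Matches began 229, 228 and 164 bases before the start in Hif1a, 51 bases before it in Slc2a1, and 87, 86 and 73 bases before it in Ldha. The windows of Vegfa, Vegfb, Kdr, Flt1, Flt4 and Epas1 held no such letters, which says nothing about elements farther away or spelled otherwise. A match is a string of letters and not a measured binding site.

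Vegfa, the ligand through which hypoxic tissue recruits capillaries, was printed on 10 spots of its brightest probe (A_43_P15572). Its mean signal over those spots was 267 in WR and 267 in the sedentary pool on chip 1, 256 and 257 on chip 2, 326 in RWR and 302 in the sedentary pool on chip 3, and 256 and 275 on chip 4. All groups overlapped, and the highest value was that of RWR in Cy5. These signals were not scaled between chips, and RWR in Cy5 also had the highest median signal over all spots (78.3). The log2 ratio of running to sedentary was 0.00 and -0.01 on the WR chips and 0.11 and -0.10 on the RWR chips, so that the RWR values changed sign with the dye. The means were -0.00 for WR and 0.00 for RWR, with an error of 0.15 from the scanner software's error model in each. Single spots ranged from -0.09 to 0.11 on the WR chips and from -0.20 to 0.18 on the RWR chips. The second Vegfa probe (A_44_P300751) gave mean log2 ratios of 0.05 and 0.01 for WR and RWR.

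Vegfb, a ligand of Flt1 linked to vessel maintenance and lipid handling, had signals of 767 in WR and 802 in the sedentary pool on chip 1, 645 and 655 on chip 2, 734 in RWR and 798 in the sedentary pool on chip 3, and 593 and 638 on chip 4 (probe A_44_P159040). The running pool was the lower of the pair on every chip, but by little, and the groups overlapped across chips. The log2 ratios were -0.06 and -0.02 for WR and -0.12 and -0.10 for RWR. The mean of -0.11 for RWR, a fold of 0.93, was smaller than its error of 0.14. At the second Vegfb probe (A_43_P16059) the means were -0.04 and -0.12, with 1 of the 4 chips above 0.

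Angpt1, the vessel-stabilising ligand, had signals of 111 in WR and 118 in the sedentary pool on chip 1, 105 and 96.6 on chip 2, 129 in RWR and 134 in the sedentary pool on chip 3, and 116 and 97.6 on chip 4. In both pairs the running pool was lower on the chip where it carried Cy5 and higher where it carried Cy3. The log2 ratios were -0.09 and 0.12 for WR and -0.05 and 0.25 for RWR. Their means of 0.02 and 0.10 were the highest among the brightest probes of the detected member genes, at an error of 0.16 and 0.15.

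Kdr, the main VEGF receptor of endothelium, gave 1533 in WR and 1729 in the sedentary pool on chip 1, 1475 and 1544 on chip 2, 1697 in RWR and 1861 in the sedentary pool on chip 3, and 1573 and 1563 on chip 4. Both WR signals lay below all 4 sedentary signals, and the RWR signals lay within their range. The share of all probes with such a gap was not computed, and these signals were not scaled between chips. The median sedentary signal was 66.7 and 66.4 on chips 1 and 2, and 74.6 and 71.9 on chips 3 and 4. The log2 ratios were -0.17 and -0.07 for WR and -0.13 and 0.01 for RWR. The WR mean of -0.12, a fold of 0.92, was the lowest WR value among detected member probes, and its error was 0.14. For RWR the mean was -0.06.

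Flt1, the decoy receptor, had signals of 64.1 in WR and 61.6 in the sedentary pool on chip 1, 50 and 58.4 on chip 2, 67.0 in RWR and 62.7 in the sedentary pool on chip 3, and 47.9 and 64.6 on chip 4 (probe A_44_P520123). Running pools were the higher with Cy5 and the lower with Cy3. The log2 ratio of -0.43 on chip 4 was the only one of the 44 single ratios at detected member probes past either fold limit (1.5-fold or 0.75-fold), and the deposited p-value there was 0.10. Its partner on chip 3 was 0.10, which left a mean of -0.17 for RWR (error 0.18) and -0.08 for WR (error 0.19). The second Flt1 probe (A_43_P12015) gave means of 0.06 and 0.05, opposite in sign to the first, with single ratios of 0.41 and -0.28 for WR.

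Flt4, the receptor of lymphatic endothelium for Vegfc and Vegfd, was near the detection limit. Signals were 11.3 in WR and 26.6 in the sedentary pool on chip 1, 18.4 and 14.7 on chip 2, 14.4 in RWR and 19.4 in the sedentary pool on chip 3, and 4.65 and 12.0 on chip 4. All 4 sedentary signals, but none of the running signals, were well above background. That pattern was shown by 4 of 41003 probes (0.00976%), and the reverse by 0. The ranges of signals overlapped all the same, and on chip 2 the WR signal was the higher. The log2 ratios were -1.24 and 0.32 for WR and -0.43 and -1.37 for RWR, with means of -0.46 (error 0.37) and -0.90 (error 0.49), and the deposited p-values were 0.034, 0.47, 0.32 and 0.12.

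Both RWR ratios of Flt4 passed 0.75-fold, but neither passed the p-value. A lower bound was taken from the mean of the 2 WR chips after Aquantile normalization of the deposited signals. The WR pool was set no lower than the lowest signal that counts as well above background. On that mean Flt4 was at least 1.05-fold lower in WR than in the sedentary pool. The bound did not hold on each chip, as the deposited log2 ratio of chip 2 was 0.32, with WR the higher. Nor did it hold under other processing. The WR mean log2 ratio was -0.00072 with normexp background correction in place of the scanner software's subtraction and -0.05 with none. In the RWR pair the bound was under 1, so that no fold can be given, and the mean was -0.08 with normexp or no correction. Before any subtraction the median pixel at this spot was 109, 222, 102 and 184 in the running pools over a local background of 67, 81.5, 66.5 and 78.5, and 267, 107, 233 and 101 in the sedentary pool over 80, 69, 88 and 65.5. On every chip the pool in Cy3 was therefore the brighter before dye normalization.

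Pecam1, an adhesion molecule at endothelial cell junctions, was not measurable. Signals were 18.8 in WR and 12.7 in the sedentary pool on chip 1, 12.3 and 11.9 on chip 2, 12.2 in RWR and 13.8 in the sedentary pool on chip 3, and 8.42 and 13.9 on chip 4. Of these 8 signals, the sedentary one of chip 4 alone was well above background. The mean log2 ratios of 0.31 for WR and -0.45 for RWR had errors of 0.41 each, no fold is given, and with normexp background correction the RWR value was -0.01. In bulk tissue, fewer cells of a type and less RNA per cell cannot be told apart.

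Hif1a, the alpha subunit that responds to acute hypoxia in most cells, gave signals of 3579 in WR and 3546 in the sedentary pool on chip 1, 3154 and 3278 on chip 2, 4138 in RWR and 3679 in the sedentary pool on chip 3, and 3259 and 3268 on chip 4 (probe A_43_P12423). The groups overlapped, and RWR in Cy5 was the highest, as it was in the median over all spots, without scaling between chips. The log2 ratios were 0.01 and -0.06 for WR and 0.17 and -0.00 for RWR, with means of -0.02 and 0.08 (error 0.14 each). At the second Hif1a probe (A_44_P397495), printed on 10 spots, ratios were above 0 on every chip, at 0.01, 0.12, 0.06 and 0.12. Its means of 0.06 for WR and 0.09 for RWR were also within the error of 0.14. RWR was thus 1.06-fold at both probes.

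Epas1, the HIF alpha subunit that endothelial cells express strongly, gave 343 in WR and 392 in the sedentary pool on chip 1, 324 and 324 on chip 2, 374 in RWR and 404 in the sedentary pool on chip 3, and 311 and 326 on chip 4. Sedentary signals were the higher on all 4 chips, on chip 2 by less than 1 unit, and the groups overlapped. The log2 ratios were -0.19 and -0.00 for WR and -0.11 and -0.07 for RWR, with means of -0.10 and -0.09 and an error of 0.15 each.

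**Figure D1:**
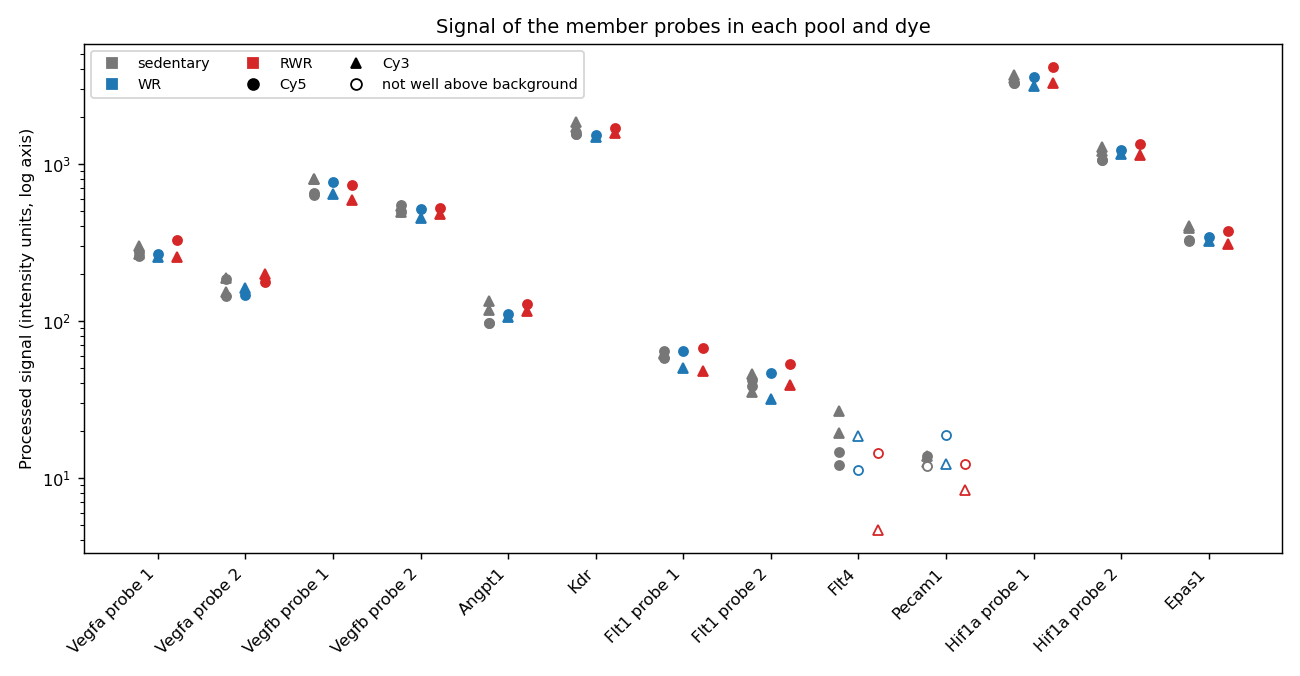
Processed signal (log axis, intensity units) of the 13 member probes in the sedentary (grey), WR (blue) and RWR (red) pools, with circles for Cy5, triangles for Cy3 and open symbols for values not well above background. Running and sedentary pools overlap at every probe except Kdr in WR, without scaling between chips, and the share of all probes with such a gap was not computed. All open symbols are at Flt4 and Pecam1. A probe's brightness depends on its sequence, so heights are comparable only within a probe.

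**Figure D2:**
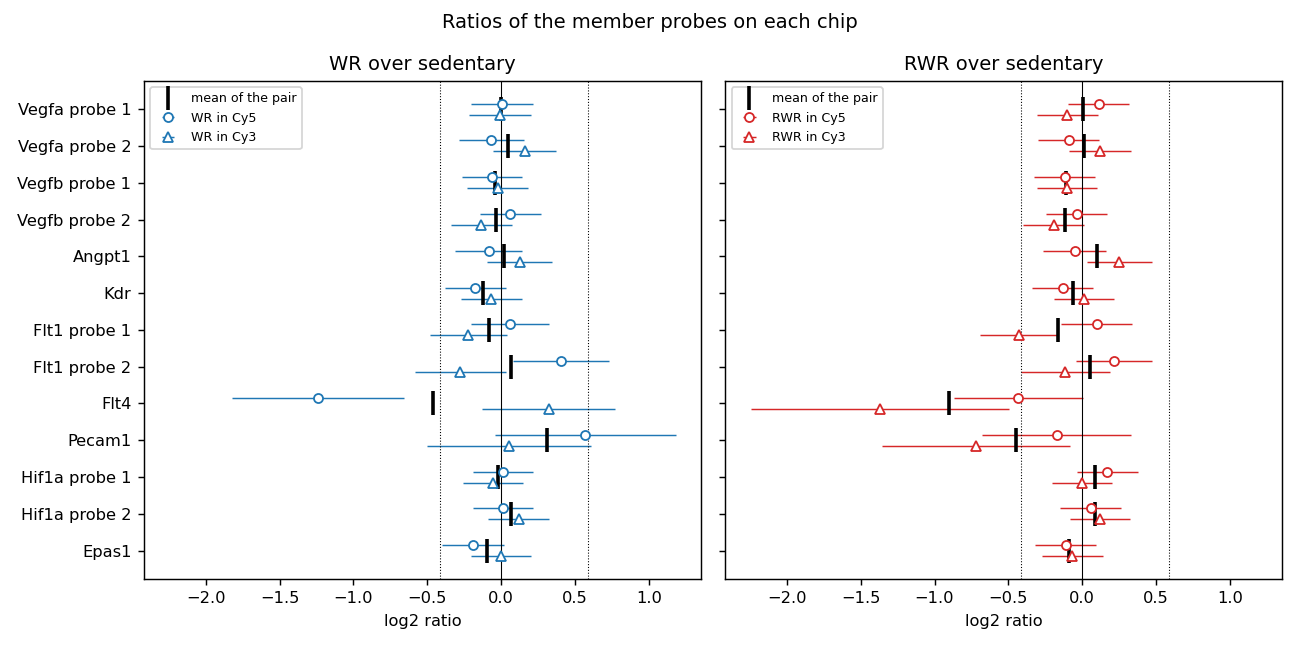
Log2 ratio of running to sedentary for each member probe on each chip (circles with the running pool in Cy5, triangles in Cy3) with the error of the error model, and the mean of the pair (black bar). Dotted lines mark 0.75-fold and 1.5-fold; bars of detected probes lie between -0.17 and 0.10, and Flt4 and Pecam1 have the widest errors.

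A probe counted as called when each chip of its pair was past 1.5-fold upwards or 0.75-fold downwards and each had a deposited p under 0.01. For WR against sedentary, 0 of 9 member genes had a called probe, against 0.0317% of 41008 probes (13). For RWR it was again 0 of 9, against 0.0585% of 41007 probes (24). With calls this rare over the whole array, 0 among 9 genes is the count that the background gives. Without the p-value, Flt4 was the only member past the fold on both chips, in RWR, against 1.48% of probes; in WR no member was, against 0.549%.

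The 11 detected member probes, of 7 genes, lay in a narrow band. Their mean log2 ratios ran from -0.12 to 0.06 in WR and from -0.17 to 0.10 in RWR, and the errors of those means from 0.14 to 0.22 and from 0.14 to 0.20. All 11 were smaller than 0.2 in size in both comparisons, as were 94.6% of all detected probes in WR and 94.0% in RWR. The median size was 0.05 in WR, against 0.05 for all detected probes, and 0.09 in RWR, against 0.06. Both chips of a pair had the same sign at 4 of 11 probes in each comparison, or 36.4%, against 28.4% and 32.8% of detected probes. The dye term is the part of the ratio that turned with the swap. It exceeds the pool ratio in size exactly where the chips of a pair differ in sign. That was so at 7 of 11 probes in each pair (63.6%), against 71.6% and 67.2%. These shares restate the same-sign shares from the other side and are not a separate result.

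**Figure D3:**
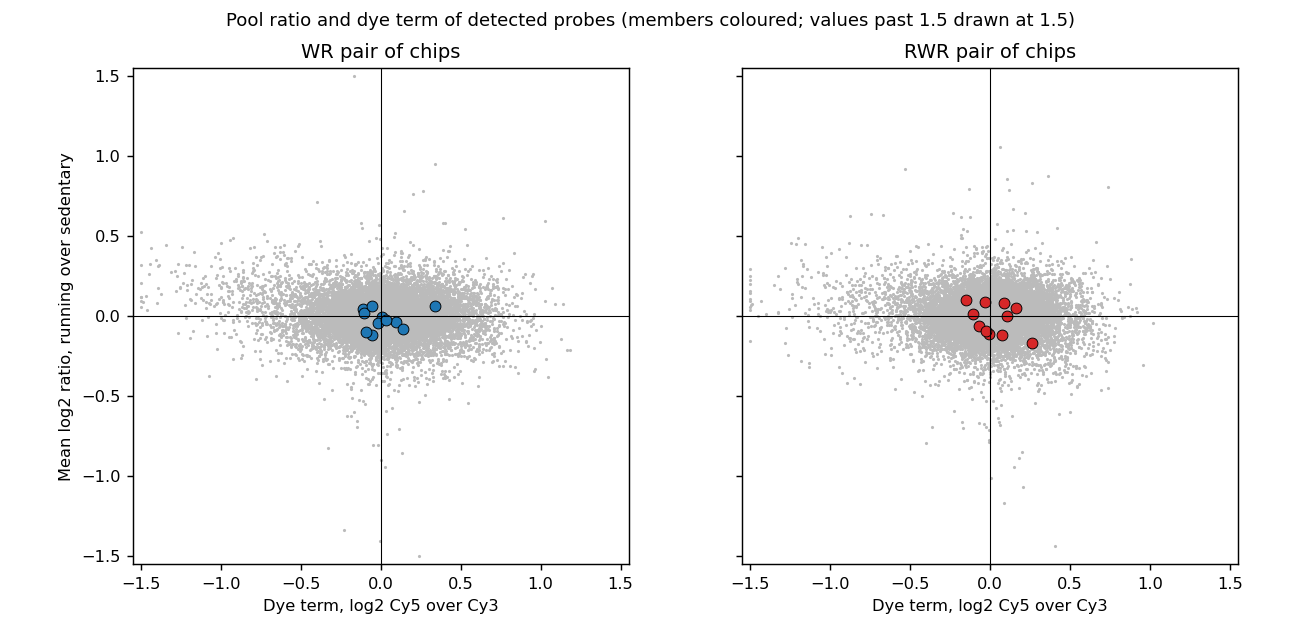
Mean log2 ratio of running to sedentary (vertical axis) against the dye term, log2 Cy5 over Cy3 (horizontal axis), for 24953 detected probes (grey) and the 11 detected member probes (coloured) in the WR and RWR pairs. Members lie within the cloud; the widest dye terms are at Flt1, 0.34 in WR and 0.26 in RWR.

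RWR was set against WR through the sedentary pool, as the difference between chips with the same dye on the running pool, on the assumption that the same sedentary pool was used on all 4 chips. Over the 11 detected probes the mean difference ran from -0.08 to 0.10 on the log2 scale, and all 11 were under 0.2 in size, against 90.2% of detected probes. The sign was the same in both orientations at 7 of 11, or 63.6%, against 57% of detected probes. The highest was the brightest Hif1a probe at 0.10 (0.16 with Cy5 and 0.05 with Cy3), while the second Hif1a probe gave 0.02 (0.05 and 0.00). No error was computed for these differences, and the pair means behind them had errors of 0.14 or more. Kdr differed by 0.06 and Angpt1 by 0.08, each above 0 in both orientations, and Vegfb by -0.07, below 0 in both. At the brightest Flt1 probe the difference was 0.04 with Cy5 and -0.21 with Cy3, and at the second it was -0.19 and 0.16. At Flt4 it was 0.80 and -1.69.

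No gene of the wider pathway lists was called. Of 8 other ligands and receptors 5 had a probe and 4 were detected. The median log2 ratio of the 5 was 0.03 for WR and -0.00 for RWR, and that of the 4 detected was 0.04 and -0.01. The lowest and highest detected genes were Nrp1, a VEGF co-receptor, at 0.01 and Nrp2, a co-receptor for VEGF and semaphorins, at 0.15 in WR, and Nrp1 at -0.04 and Vegfc, the lymphatic growth factor, at 0.03 in RWR. The single chips of Nrp2 read -0.31, 0.61, -0.84 and 0.84, alternating with the dye. Of the 12 of 14 HIF target genes with a probe, 11 were detected and 0 were called. The median of the 12 was 0.05 in WR and -0.02 in RWR, and that of the 11 detected was 0.05 and -0.03.

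Among detected HIF targets, Adm, the vasodilator adrenomedullin, was the highest in both comparisons, at 0.17 in WR (0.24 and 0.09) and 0.10 in RWR (0.17 and 0.03). The lowest were Angptl4, an inhibitor of lipoprotein lipase, at -0.19 in WR (-0.10 and -0.28) and Pdk1, a kinase that holds pyruvate out of the mitochondrial cycle, at -0.23 in RWR (-0.30 and -0.16). Slc2a1 and Ldha, whose promoter windows stand above, were at -0.04 and 0.06 in WR and 0.02 and -0.03 in RWR. Of 7 genes of oxygen sensing and HIF partners with a probe, 5 were detected and 0 were called, with medians of -0.01 and 0.03. In WR their extremes were Egln3, a HIF prolyl hydroxylase, at -0.04 and Arnt2, a neuronal HIF partner, at 0.15. In RWR they were Egln2, another prolyl hydroxylase, at -0.15 and Egln3 at 0.10. The single chips of Arnt2 read 0.69, -0.39, 0.66 and -0.56, alternating with the dye.

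Cell type markers were read to see what the samples held. Hippocampal neuron markers were detected at 5 of 5 genes with a probe, endothelial markers at 8 of 8 and pericyte and mural markers at 8 of 8, and none of them was called. The endothelial list leaves out the members Kdr and Flt1, which were detected, and Pecam1, which was not. Endothelial medians were -0.00 in WR and 0.04 in RWR, from Eng, a TGF-beta co-receptor, at -0.12 to Slco1a4, an organic anion transporter of the blood-brain barrier, at 0.10 in WR, and from Emcn, an endothelial sialomucin, at -0.11 to Slco1a4 at 0.19 in RWR. Slco1a4 was above 0 on all 4 chips, at 0.07, 0.12, 0.16 and 0.22. Pericyte and mural medians were 0.04 and 0.06, from Pdgfrb, the PDGF-B receptor, at -0.06 to Abcc9, a potassium channel subunit, at 0.19 in WR, and from Kcnj8, the pore of that channel, at -0.03 to Abcc9 at 0.18 in RWR. Abcc9 read 0.72, -0.34, 0.61 and -0.25, with the dye.

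Neuron medians were 0.05 and 0.04, from Slc17a7, the vesicular glutamate transporter, at -0.01 to Wfs1, a marker of CA1, at 0.10 in WR, and from Slc17a7 at -0.09 to Snap25, a synaptic SNARE protein, at 0.08 in RWR. Ttr, the carrier protein of choroid plexus, was the only gene of any list that was called: it was lower in WR, at -0.86 (-0.72 and -0.99), and read 0.12 in RWR. Of 6 choroid plexus genes with a probe, the other detected one, the folate receptor Folr1, was at -0.21 and 0.06, the other 4 were not detected on all chips, and the list medians were -0.08 and 0.12. Meningeal medians were -0.07 and 0.08, with Dcn, a matrix proteoglycan, at -0.12 and Lum, another, at -0.01 in WR, and Dcn at 0.06 and Col1a2, a collagen chain, at 0.08 in RWR. Blood medians were -0.02 and 0.00, with beta-globin Hbb at -0.05 and -0.11 and Alas2, the erythroid enzyme of heme synthesis, at 0.00 and 0.12. The part of choroid plexus content in the members' values was not tested; all detected members in the WR pair were at or above -0.12.

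**Figure D4:**
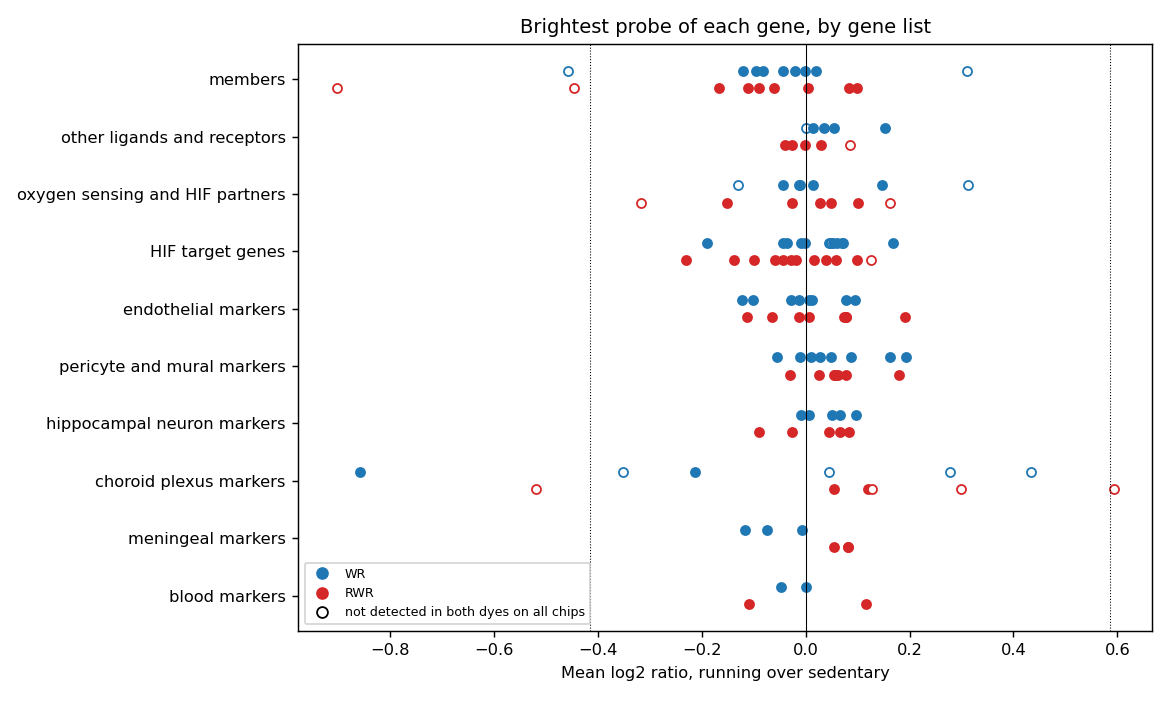
Mean log2 ratio of running to sedentary at the brightest probe of each gene, by list, for WR (blue) and RWR (red); open circles are genes not detected in both dyes on all chips, and dotted lines mark 0.75-fold and 1.5-fold. Apart from Ttr in WR at -0.86, the detected genes of each list lie between -0.23 and 0.19; the 2 members beyond that range, Flt4 and Pecam1, are open circles.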

How the data were processed

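Pooled RNA of the 3 groups was measured on 4 chips, and the groups come from the labels of each dye. Whether the same sedentary pool was used on all 4 chips is not stated in the sources used here. The authors processed the scans with Agilent Feature Extraction 11.0.1.1, which subtracted background, normalized the dyes by LOWESS and fitted an error model. The deposited values used were the processed intensity of each dye, the log10 ratio of Cy5 over Cy3, its error (a score in log10 units) and the p-value of that chip. The deposited series matrix holds log10 ratios of the same features. Raw median and local background intensities deposited for each spot were used for the alternatives.

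From these, control spots and the 118 to 140 outlier spots per chip were dropped, and ratios were expressed as running over sedentary on the log2 scale and averaged over the spots of a probe (median p-value). The probe of a gene with the highest mean signal represented it. Accessions were matched without version to RefSeq (GRCr8), for names and promoter windows; the array's probes (60 bases) were designed on another build, and no probe coordinates are given. Named from the wider lists were genes with a called probe and, per list, the detected genes with the highest and lowest mean ratio. The members, lists and rules were chosen with earlier results of these data known. Lower bounds used Aquantile normalization in limma 3.58.1 (R 4.3.3), the alternatives normexp (offset 50) or no background correction, with loess. Scripts ran in Python 3.11.15 with pandas 2.3.3. Only the calling rule and the mean of a pair were tested on simulated data.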

Additional observations from a re-analysis of the deposited data

Results flagged for a closer look

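At 9 genes of the members and the wider lists, both chips of the WR pair lay on one side of 0 and both chips of the RWR pair on the other. The difference between the comparisons was not tested, as each rests on 1 biological replicate. The share of all probes with this pattern was not computed, so the count of 9 cannot be set against the array. At Pdk1, Egln3, Nos3 and Pdgfrb the error of the mean ratio was 0.15 in each comparison. Nos3 and Kcnj13 are named here only because their values showed this pattern. As the log2 ratio of RWR minus that of WR, the differences were -0.30 at the HIF target Pdk1 (0.07 in WR and -0.23 in RWR), 0.15 at the prolyl hydroxylase Egln3 (-0.04 and 0.10), 0.11 at the endothelial nitric oxide synthase Nos3 (-0.10 and 0.01) and 0.12 at the pericyte marker Pdgfrb (-0.06 and 0.06). In the lists of neighbouring tissues they were 0.98 at Ttr (-0.86 and 0.12), 0.17 at Dcn (-0.12 and 0.06) and 0.15 at Col1a2 (-0.07 and 0.08), and in the opposite direction -0.80 at the choroid plexus channel Kcnj13 (0.28 and -0.52), which was not detected on all chips. Pecam1, not measurable as described above, differed by -0.76 in the deposited ratios, but by -0.05 with normexp or no background correction.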

How the results depend on the processing

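No member was called under any alternative except Flt4 in RWR, which passed the fold on both chips once the p-value filter was dropped, with the deposited ratios or with the series matrix values (1 gene in each, against 0). The called probes numbered 13 in WR (92.3% lower) and 24 in RWR (83.3% lower). They became 225 (61.3% lower) and 608 (94.1% lower) without the p-value filter, 28 and 75 with the p-value on at least 1 chip, 5 and 15 with normexp correction, 6 and 10 without background correction, and 225 and 633 (90.4% lower) with the series matrix values, which were also read without a p-value filter. Single chips gave 1606 to 3201 in WR and 2572 to 2826 in RWR. The members' median log2 ratio was -0.04 in WR and -0.00072 with normexp correction. In RWR it was -0.09, and -0.0299 with normexp, -0.0294 with no background correction, -0.062 over detected probes or over the median of a gene's probes, and -0.11 to -0.10 on single chips. For RWR relative to WR it was 0.0059, and -0.0803 to 0.0407 with 1 dye orientation left out. Signs of members were not stable: with chip 1 or chip 2 left out, 1 and 4 of 9 WR ratios turned sign (Flt4; Vegfa, Angpt1, Flt1 and Hif1a), and with chip 3 or chip 4 left out, 3 and 2 RWR ratios did. With normexp correction 2 WR ratios and 0 RWR ratios turned. No paired analysis was possible because the chips of a pair are a dye swap of the same pools. With 1 biological replicate, no value speaks for the rats of a group, and at Flt4 and Pecam1 the signal over background limits every ratio.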
